A study of Homo sapiens with 48 samples.

Results

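Knockdown of the splicing factor RBM39 was followed in IMR90 ER:RAS cells that had received DMSO, so that RAS was not switched on. The 8 libraries transfected with siRBM39-06 or siRBM39-08 were compared with the 8 libraries transfected with the non-targeting siRNAs siNT1 or siNT2, and the members were chosen by sample title, 16 of the 48 libraries of the series. IMR90 cells are human fibroblasts isolated from normal lung tissue. ER:RAS is a fusion of oncogenic RAS to the ligand-binding domain of the oestrogen receptor, which 4-hydroxytamoxifen (4OHT) activates and DMSO, its solvent, does not. All 16 cultures therefore carried the fusion, received DMSO for 6 days, were transfected with an siRNA and were collected 2 days later in 0.5% serum. Each siRNA was represented by 4 libraries. The labels do not say that the 4 came from separate cultures. The methods of the study call replicates of cell culture work independent, but state fewer replicates for this knockdown than the labels hold. The p-values therefore measure a spread between libraries, part of which may be technical. For genes and single events this spread was estimated over all 48 libraries of the series.

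RBM39 is an RNA-binding protein of the nucleus, also known as CAPERα, with RNA recognition motifs and a U2AF homology motif like that of U2AF2. U2AF reads the pyrimidine tract and the AG at the 3′ end of an intron and brings the U2 snRNP to the branch site. RBM39 binds the U2 snRNP component SF3B1 and is best known as the target of aryl sulfonamide drugs, which send it to the proteasome and alter the inclusion of many cassette exons. Its paralogue RBM23 is a substrate of the same drugs.

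The libraries held 36207502 to 48566557 counts. Fibroblast markers summed to 55330 to 61720 CPM (counts scaled to the size of the library) in siNT and 40930 to 57740 CPM in siRBM39, and none of the 12 averaged under 1 CPM. The 8 epithelial markers summed to 47.6 to 61.3 CPM in siNT and 49.9 to 99.4 CPM in siRBM39. The 5 endothelial markers found in the table summed to 32.4 to 35.2 and 33.5 to 41.1 CPM, and the 6 leukocyte markers to 36.5 to 47.5 and 33.6 to 46.5 CPM. Of the 8 epithelial markers 2 averaged under 1 CPM (CDH1 and SFTPC), and of the 5 endothelial markers 3 did (CDH5, KDR and EMCN). The remaining epithelial and endothelial markers did not average under 1 CPM. Of the 6 leukocyte markers 5 averaged under 1 CPM (PTPRC, CD14, ITGAM, CD3E and MS4A1), and CD3E and MS4A1 had 0 counts in all 16 libraries. In bulk RNA, fewer cells of a type and less RNA per cell cannot be told apart. The siRBM39-06 libraries differed more among themselves than the others: replicate 1 had 46 of 9991 genes over 2-fold from the median of its group, against 4 to 9 for the other 3 and 0 for each siRBM39-08 library. Among the controls, siNT1 replicate 1 stood apart, with 5 such genes against 0 in the other 7. The total counts of calls are given with and without each of these 2 libraries.

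RBM39 mRNA (ENSG00000131051, GRCh37 chr20:34289269-34330234) ranged from 158 to 185 CPM in siNT, with a median of 172. It ranged from 24.2 to 31 CPM in siRBM39, with a median of 27.4, so that the groups did not overlap and the labels were borne out in each library. The fitted change was −2.64 on the log2 scale (SE 0.05, edgeR quasi-likelihood test, adjusted p = 3.15e-38), or 0.161-fold. The change was −2.73 with siRBM39-06 and −2.55 with siRBM39-08, and this small difference passed the edgeR test between the siRNAs (adjusted p = 0.00295).

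The other proteins that recognise the 3′ end of introns went the other way or did not change by the test. Of the 6 tested members of this family, RBM39 included, 3 rose with both siRNAs and RBM39 alone fell. SF1, which binds the branch point before U2AF hands it to the U2 snRNP, went from 192–206 CPM in siNT to 260–322 CPM in siRBM39. Its log2 change was 0.54 ± 0.05 (SE). U2AF1, the small U2AF subunit that contacts the AG, rose by 0.42 on the log2 scale, and the paralogue RBM23 by 0.25. The 8 siRBM39 libraries lay above the 8 siNT libraries for each of these 3 genes. U2AF2, which binds the pyrimidine tract, had a log2 change of 0.06 (edgeR adjusted p = 0.528). PUF60, another protein with a U2AF homology motif, had one of 0.18 (edgeR adjusted p = 0.206). On the cRPKM scale, which corrects for length, RBM39 went from a mean of 70.7 to 11.5 while RBM23 went from 20.3 to 24.3. RBM23 transcripts thus passed those of RBM39 in level per length.

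The question of the wider comparison was which transcripts change when RBM39 is low and RAS is silent. A gene was called at an adjusted p under 0.05 in the edgeR fit of 8 against 8 libraries, and called by both siRNAs where each siRNA alone also passed in the same direction against the 8 siNT libraries, which the tests of the siRNAs share. In the 8 against 8 fit, 2387 of 9991 genes were higher (23.9%) and 2218 lower (22.2%). Both siRNAs agreed on 1409 higher genes (14.1%) and 1504 lower genes (15.1%). The median log2 change was 0.33 among the higher and −0.45 among the lower genes, against 0.02 over all genes. The changes of at least 2-fold lay mostly on the lower side, with 101 genes (1.01%) against 28 (0.28%) in the 8 against 8 fit. Without siRBM39-06 replicate 1 the siRNAs agreed on 1404 higher and 1519 lower genes, and the pooled fit called 2272 and 2123. Without siNT1 replicate 1 the siRNAs agreed on 1384 and 1485, and the pooled fit called 2252 and 2147.

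The siRNAs differed between themselves far more than the control siRNAs did. siRBM39-08 against siRBM39-06 called 4752 genes (47.6%), while siNT2 against siNT1 called 163 (1.63%). In the separate tests 448 genes passed in opposite directions. Of the 4752, 116 reached 2-fold between siRBM39-08 and siRBM39-06. The genes and lists that follow are therefore described by what both siRNAs shared.

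**Figure D1:**
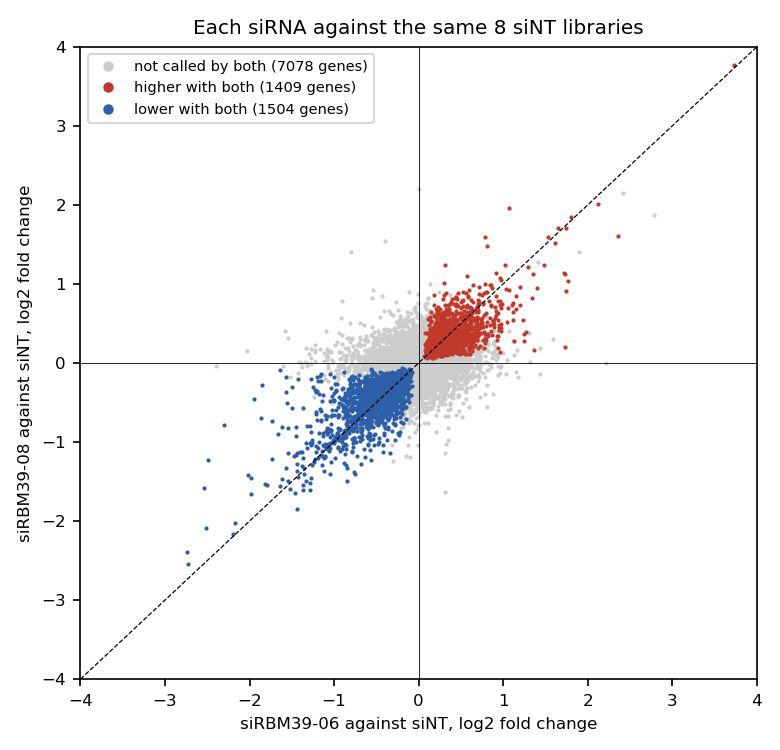
Each point is 1 of 9991 genes, with its log2 fold change after siRBM39-06 on the horizontal axis and after siRBM39-08 on the vertical axis, both against the same 8 siNT libraries. Red points are the 1409 genes higher and blue points the 1504 genes lower with both siRNAs, and the dashed line marks equal changes. GUCA1B lies at the upper right and RBM39 at the lower left.

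The genes that fell most after RBM39 itself were DHFRL1, SLC22A4, ZDHHC2, SLC38A6, RNFT1, SCN9A, APEH, CCDC136 and HERC3. They were ranked by the smaller of the 2 siRNA changes among genes whose groups did not overlap, so their separation is part of the choice. ZDHHC2, a palmitoyltransferase, ranged from 95.9 to 114 CPM with a median of 105 in siNT and from 14 to 26 CPM with a median of 23.3 in siRBM39. Its log2 change was −2.29 ± 0.09 (SE, edgeR adjusted p = 1.89e-25). SCN9A, the sodium channel Nav1.7, ranged from 127 to 186 CPM in siNT and from 17.3 to 55.8 CPM in siRBM39. Its log2 change was −2.53 with siRBM39-06 and −1.58 with siRBM39-08, a difference that passed the edgeR test (adjusted p = 3.13e-07).

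DHFRL1 is a retrogene, so that its counts are uncertain where reads match more than 1 place. It went from 9.23–10.3 CPM in siNT to 1.31–2.12 CPM in siRBM39 (log2 change −2.55). SLC38A6, of the amino acid transporter family, went from 22.8–25.2 CPM to 4.90–6.15 CPM, and SLC22A4, a carrier of organic cations such as ergothioneine, from 3.89–5.04 CPM to 0.844–1.18 CPM. Their log2 changes were −2.10 and −2.18. APEH, which removes acylated residues from peptides, went from 65.9–77.7 CPM to 21.7–26.6 CPM (log2 change −1.60). Of its 6 tested splicing events 2 exons were called by both siRNAs. SLC38A6 had 1 tested event, which was not called, and the remaining genes of this set had none. RNFT1 (−1.81), CCDC136 (−1.67) and the ubiquitin ligase HERC3 (−1.66) had smaller log2 changes.

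Among the genes tested, the largest rise was that of GUCA1B, a calcium sensor that regulates guanylate cyclase in photoreceptors. It ranged from 0.335 to 0.746 CPM with a median of 0.576 in siNT and from 7.18 to 8.34 CPM with a median of 7.46 in siRBM39. The log2 change was 3.74 ± 0.12 (SE, edgeR adjusted p = 1.1e-28), and siRBM39-06 (3.73) and siRBM39-08 (3.77) had changes that were not told apart by the edgeR test (adjusted p = 0.772). SEC31B, a paralogue of the COPII coat protein SEC31A, ranged from 6.37 to 14.6 CPM in siNT and from 32.4 to 41.2 CPM in siRBM39. GALK2, a sugar kinase, went from 11.1–13.1 CPM to 27–32.2 CPM, again with no library of one group inside the range of the other.

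OVGP1, an oviductal glycoprotein, went from 0.825–1.37 CPM to 4.06–5.58 CPM, and the zinc finger gene ZNF557 from 8.09–12 CPM to 29.8–36.2 CPM. LAT, an adaptor of T-cell receptor signalling, went from 3.27–6.65 CPM to 15.6–36.8 CPM, with a larger rise after siRBM39-06 (2.36) than after siRBM39-08 (1.61). HDAC9, a class IIa histone deacetylase, rose by 1.57 on the log2 scale, HSD17B2, which inactivates oestradiol and testosterone, by 1.37, LY6G5B by 1.56 and the gene listed as AC133561.1 by 1.82. In siNT cells 5 of these 10 genes had a median under 3 CPM. Genes were tested if they held at least 10000 counts summed over all 48 libraries of the series. At their siNT level these 5 would not have reached that sum. They were tested through libraries where they were higher, those of siRBM39 among them. The filter thus took part in placing them among the largest rises. GUCA1B, AC133561.1, SEC31B, LAT, LY6G5B, HDAC9, HSD17B2 and GALK2 overlap other annotated genes, LY6G5B being on the same strand as CSNK2B, and strand use in the counting is not given in the sources used here, so their counts may hold reads of the neighbour. The same holds for the lowered genes DHFRL1, SLC22A4, SLC38A6, RNFT1, SCN9A, APEH and HERC3.

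**Figure D2:**
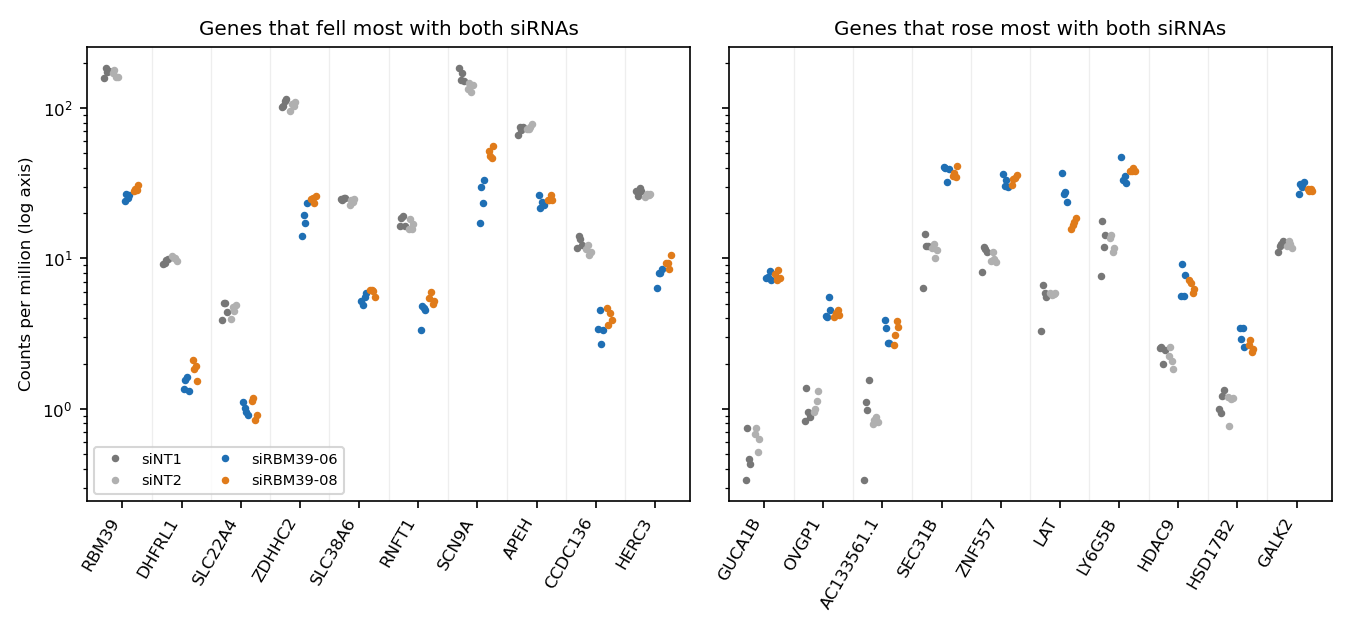
CPM on a log axis for each of the 16 libraries, with siNT1 in dark grey, siNT2 in light grey, siRBM39-06 in blue and siRBM39-08 in orange. RBM39 and the 9 other genes that fell most stand on the left and the 10 that rose most on the right. In every gene shown the 8 siRBM39 libraries lie apart from the 8 siNT libraries, which the choice of genes required.

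Genes of the spliceosome moved upward more often than genes at large. Of 21 tested genes of the SF3a, SF3b and U2 snRNP list, 10 rose with both siRNAs and 0 fell, and the list's median log2 change was 0.19 against 0.02 over all genes. SF3B1, which clamps the branch point helix, rose by 0.46 on the log2 scale, from a mean of 359 to 492 CPM. SR140 (now U2SURP) rose by 0.43 and the helicase DHX15 by 0.37. Of 16 SR proteins, which bind exonic enhancers, 8 rose and 0 fell. SRRM1 rose by 0.49, SRSF1 by 0.40 and SFRS3 (now SRSF3) by 0.37. Of 26 hnRNP and PTB proteins, which mostly oppose exon use, 11 rose and 0 fell, led by PTBP2 (0.84), HNRNPC (0.48) and HNRNPL (0.47). Against the shares over all genes of 14.1% higher and 15.1% lower, these 3 lists held 47.6%, 50.0% and 42.3% higher genes and no gene that was lower with both siRNAs.

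In the remaining spliceosome lists more genes rose than fell with both siRNAs, while splicing kinases were split. Of 6 Sm core proteins, SNRPB (0.67) and SNRPG (0.39) rose with both siRNAs and 0 fell. The 8 against 8 fit called all 6 higher, and 4 of them without siRBM39-06 replicate 1. The median log2 change of this list was 0.35. Of 22 tri-snRNP genes 7 rose, led by PRPF3 (0.48), PPIH (0.44) and NAA38 (now LSM8, 0.34), and the helicase SNRNP200 fell by 0.32. Of 22 genes of the Prp19 complex and catalytic factors 5 rose, namely CDC5L (0.36), RBM22 (0.27), BUD31 (0.23), CRNKL1 (0.23) and SYF2 (0.22), and DHX16 fell by 0.20. Of 12 U1 snRNP genes, LUC7L (0.84), PRPF39 (0.50) and RBM25 (0.46) rose and TIA1 fell by 0.27. Among 10 splicing kinases, CLK1 (0.47) and CLK4 (0.39) rose while CLK2 (−0.33) and SRPK1 (−0.23) fell. The 8 against 8 fit called 15 of the 21 U2 genes higher and 0 lower, 10 of the 16 SR genes higher and 1 lower, and 16 of the 26 hnRNP genes higher and 2 lower. Without siRBM39-06 replicate 1 it called 12 higher and 1 lower, 10 and 0, and 15 and 1. Without siNT1 replicate 1 it called 14 and 0, 9 and 1, and 15 and 1.

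**Figure D3:**
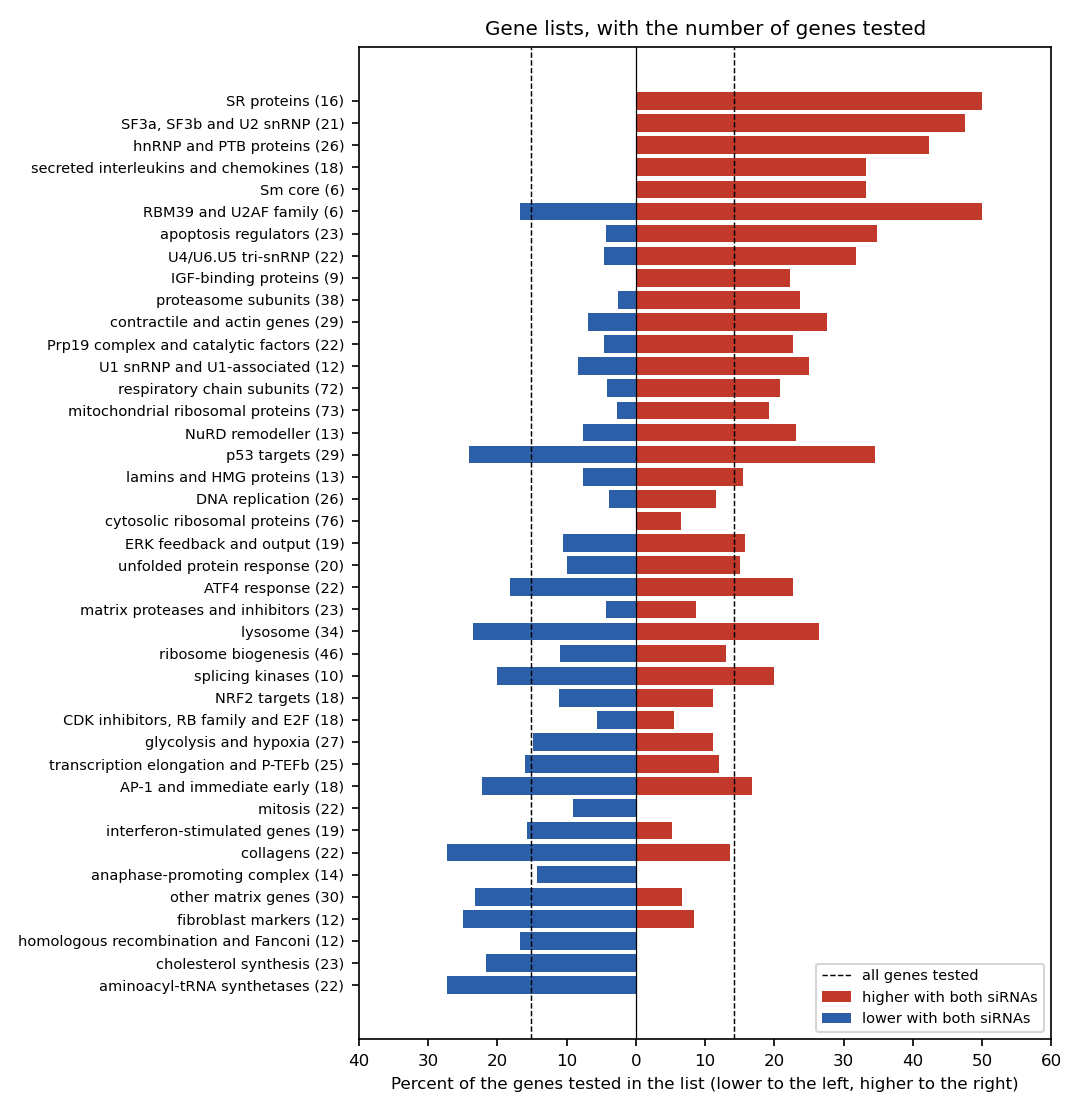
Percent of the tested genes of each list that were higher (red, to the right) or lower (blue, to the left) with both siRNAs, with the number tested in brackets. Dashed lines mark the shares over all 9991 genes, 14.1% higher and 15.1% lower. SR proteins, the SF3 and U2 list and hnRNP proteins stand at the top with no lower gene, and aminoacyl-tRNA synthetases at the bottom with no higher gene.

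More apoptosis regulators rose than fell, and p53 targets moved both ways. Of 23 apoptosis regulators 8 rose (34.8%) and 1 fell (4.35%), where 14.1% and 15.1% of all genes did. The pro-apoptotic BMF rose by 0.93, BAX by 0.74 and the caspase CASP2 by 0.64, and CFLAR, an inhibitor of caspase 8, fell by 0.47. Of 29 p53 targets, 10 rose (34.5%) and 7 fell (24.1%). GDF15, a stress cytokine, ranged from 39.8 to 47.6 CPM in siNT and from 88.7 to 135 CPM in siRBM39 (log2 change 1.25 ± 0.12 SE). CDKN1A, which encodes the CDK inhibitor p21, ranged from 908 to 1003 CPM in siNT and from 1315 to 1413 CPM in siRBM39, with a log2 change of 0.53. The groups did not overlap for either. DDB2 (−0.71), TP53I3 (−0.47) and SPATA18 (−0.31), also on the p53 list, fell.

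In the proliferation lists 0% to 11.5% of genes were higher and 3.85% to 16.7% lower with both siRNAs. Over all genes the shares were 14.1% and 15.1%. Of 18 genes of CDK inhibitors, RB family and E2F, CDKN1A rose, as given above, and CDKN2B fell by 0.24. Of 22 mitosis genes 0 rose, and ECT2, the exchange factor of cytokinesis (−0.86), and FOXM1 (−0.24) fell. Of 26 replication genes, ORC6L (0.43), RPA2 (0.38) and MCM4 (0.25) rose and GINS4 fell by 0.61. The 8 against 8 fit called 9 of the 26 higher and 2 lower, against 23.9% and 22.2% over all genes. Without siRBM39-06 replicate 1 it called 7 and 1. FANCI (−0.70) and RBBP8 (−0.62) fell among 12 recombination genes, and ANAPC7 (−0.73) and CDC16 (−0.31) among 14 genes of the anaphase-promoting complex. The median of the mitosis list was −0.28 with siRBM39-06 and 0.13 with siRBM39-08, and 14 of its 22 genes had opposite signs.

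More of the tested interleukins and chemokines, part of the secretory profile of senescent cells, rose than fell, some of them from low levels. Of 18 tested, 6 rose and 0 fell (33.3% against 14.1%). IL1B ranged from 0.109 to 0.491 CPM in siNT and from 0.490 to 1.13 CPM in siRBM39, CXCL1 from 0.181 to 0.615 CPM and from 0.548 to 0.974 CPM, and IL8 (CXCL8) from 0.596 to 1.15 CPM and from 0.886 to 1.96 CPM. The groups overlapped for all 3, and the call of IL8 was lost with limma-voom (adjusted p = 0.202). Genes were tested on counts summed over all 48 libraries. At these levels the 3 genes passed that filter through libraries outside this comparison. The share of the list therefore describes only genes that the wider series let in. Of 23 matrix proteases and inhibitors, the urokinase receptor PLAUR (0.81) and ADAMTS12 (0.52) rose and TIMP3 fell by 0.44. IGF2 (0.67) and IGFBP7 (0.25) rose among 9 genes of the IGF-binding list. Of 19 interferon-stimulated genes, STAT2 (−0.56), TRIM22 (−0.48) and OAS3 (−0.73) fell and USP18 rose by 0.18.

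Metabolic lists were split, where 14.1% of all genes were higher and 15.1% lower with both siRNAs. None of 22 aminoacyl-tRNA synthetases, which charge tRNAs, rose with both siRNAs, and 6 fell (27.3%), led by MARS (−0.82), AARS (−0.64) and QARS (−0.64). The list's median log2 change was −0.27 with siRBM39-06 and 0.01 with siRBM39-08, and 10 of the 22 genes had opposite signs. MARS went from 236–263 CPM in siNT to 121–160 CPM in siRBM39. None of 23 genes of cholesterol synthesis rose, and 5 fell (21.7%). TM7SF2, a sterol reductase, fell by 1.38 from a median of 28 to 10.4 CPM, and FDPS (−0.51), ACAT2 (−0.50), LSS (−0.50) and the transcription factor SREBF2 (−0.39) fell less. Of 22 ATF4 response genes 5 rose (22.7%) and 4 fell (18.2%). The cystine carrier SLC7A11 had log2 changes of −2.49 with siRBM39-06 and −1.22 with siRBM39-08. VLDLR (−1.14), ALDH1L2 (−0.94) and SHMT2 (−0.41) also fell. CEBPB (0.59), ATF3 (0.43), PPP1R15A (0.40), CHAC1 (0.31) and STC2 (0.21) rose.

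Of 72 respiratory chain subunits 15 rose (20.8%) and 3 fell (4.17%) with both siRNAs, where 14.1% and 15.1% of all genes did. NDUFS4 (0.66), NDUFS6 (0.62) and NDUFA7 (0.48) rose, while NDUFS1, the largest subunit of complex I, fell by 1.03, from a median of 96.4 to 48.5 CPM. UQCRC2 (−0.30) and NDUFV3 (−0.17) were the other two that fell. Of 73 mitochondrial ribosomal proteins 14 rose and 2 fell (MRPS16, −0.43, and MRPS10, −0.23), MRPS21 (0.48), MRPL22 (0.46) and MRPL50 (0.35) leading the rise. Of 38 proteasome subunits 9 rose, with PSMB2 (0.32), PSMA3 (0.29) and PSMD14 (0.26) first, and PSMD2, a scaffold of the regulatory particle, fell by 0.62. Of 76 cytosolic ribosomal proteins 5 rose by 0.14 to 0.33 (RPS23, RPL37, RPL24, RPL35A and RPL5) and 0 fell, a share of 6.58% against 14.1% over all genes. Without siRBM39-06 replicate 1, the 8 against 8 calls went from 29 higher and 5 lower to 22 and 8 for the respiratory chain, and from 16 and 1 to 9 and 4 for the cytosolic ribosomal proteins.

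Other lists split between higher and lower genes. Of 34 lysosome genes 9 rose (26.5%) and 8 fell (23.5%) with both siRNAs, where 14.1% and 15.1% of all genes did. The protease CTSC rose by 0.33 on the log2 scale, and HEXA fell by 0.74, from 130–147 CPM to 76.0–98.0 CPM, followed by TPP1 (−0.53) and GUSB (−0.48). Of 46 ribosome biogenesis genes 6 rose, with NOP10 (0.48), DDX47 (0.26) and DDX10 (0.25) first, and GNL3 (−0.63), TSR1 (−0.48), UTP14A (−0.40), HEATR1 (−0.32) and DDX52 (−0.28) fell. Of 20 genes of the unfolded protein response, DNAJB11 (0.63), HSP90B1 (0.36) and DNAJB9 (0.34) rose, and EDEM1 (−0.72) and HERPUD1 (−0.37) fell. Of 18 NRF2 targets 2 rose, OSGIN1 (0.76) and HMOX1 (0.63), and 2 fell, SLC7A11 among them.

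Matrix genes moved both ways, where 14.1% of all genes were higher and 15.1% lower with both siRNAs. Of 30 matrix genes other than collagens 2 rose (6.67%), SPARC (0.46) and FBLN5 (0.19), and 7 fell (23.3%). POSTN fell by 1.02 in the 8 against 8 fit, with log2 changes of −1.94 for siRBM39-06 and −0.46 for siRBM39-08. LOXL3 (−0.95) and LOXL4 (−0.86), which cross-link collagen, also fell. Of 22 collagens, whose median log2 change was 0.13 with siRBM39-06 and −0.14 with siRBM39-08, 6 fell, led by COL15A1 (−0.69), COL8A1 (−0.45) and COL6A3 (−0.34), and 3 rose, the basement membrane chains COL4A1 (0.54) and COL4A2 (0.29), and COL5A1 (0.18). Among 12 fibroblast markers, FAP rose by 0.42, and COL1A2 (−0.27), COL3A1 (−0.24) and VIM (−0.22) fell, beside the summed level given above, whose part in these changes was not tested. Of 29 contractile genes 8 rose, with CNN1 (0.47), CNN2 (0.34) and TPM2 (0.32) among them, and TLN1 (−0.52) and FLNA (−0.26) fell.

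In the lists of signalling, glycolysis, chromatin and elongation genes 11.1% to 23.1% were higher and 7.69% to 22.2% lower with both siRNAs. Over all genes the shares were 14.1% and 15.1%. MAFF (0.65), ATF3 and IER3 (0.26) rose among 18 immediate early genes and KLF2 (−0.86), EGR3 (−0.69), KLF4 (−0.33) and KLF6 (−0.26) fell. EPHA2 (0.63), ETV4 (0.39) and IER3 rose among 19 genes of ERK output, and PHLDA1 (−0.47) and SPRED3 (−0.31) fell. HK2 (0.71), SLC2A3 (0.36) and SLC2A1 (0.27) rose and ALDOC (−0.46), PFKM (−0.32), P4HA2 (−0.24) and P4HA1 (−0.13) fell among 27 genes of glycolysis and hypoxia. MTA1 (0.34), MBD2 (0.32) and HDAC1 (0.28) rose and CHD4 (−0.25) fell among 13 NuRD genes. TH1L (−0.78), SUPT6H (−0.43), CDK9 (−0.39) and LARP7 (−0.32) fell and ELL (0.42), SUPT4H1 (0.14) and SUPT16H (0.12) rose among 25 elongation genes. LBR (−0.51) fell and HMGN3 (0.27) and HMGB1 (0.17) rose among 13 lamin and HMG genes.

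Splicing was read as percent spliced in (PSI), the share of reads that include an exon, retain an intron or use a given splice site. Over the 7673 cassette exons tested, mean PSI per library was 83.7% ± 0.02 (SD, n = 8) in siNT and 82.4% ± 0.02 (SD, n = 8) in siRBM39. The difference of −1.30 points was the same for siRBM39-06 and siRBM39-08, and no library of one group reached the other (two-sided exact permutation test, adjusted p = 0.00093 over 6 tests, raw p = 0.00016, the smallest that 12870 splits allow). Over the 5248 introns, mean PSI rose from 1.37% ± 0.26 to 2.01% ± 0.14 (SD, n = 8 each), a difference of 0.64 points (exact permutation test, adjusted p = 0.00093). The control with the lowest intron PSI was siNT1 replicate 1, at 0.904% against 1.18% to 1.80% in the other 7, and without 1 library at a time the difference lay between 0.575 and 0.704 points.

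Events counted as changed when limma on the logit of PSI gave an adjusted p under 0.05 together with a shift of 5 points or more, in the 8 against 8 fit and with each siRNA. Both siRNAs agreed on 369 exons that were skipped more (4.81% of those tested) and 46 that were included more (0.6%). They agreed on 45 introns retained more (0.857%) and 3 retained less (0.0572%). Of 547 alternative 3′ splice sites, 13 were used more (2.38%) and 5 less (0.914%). Of 371 alternative 5′ splice sites, 4 were used more (1.08%) and 1 less (0.27%). No exon, no intron and no 5′ site differed between siNT2 and siNT1 by the same limits, 1 alternative 3′ site did, and 7 exons (0.0912%) and 0 introns differed between siRBM39-08 and siRBM39-06. The median shift was −13.3 points among the skipped and 14.2 points among the included exons.

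The exons that changed most are shown with their sequence, since RBM39 and U2AF act where exon and intron meet. Coordinates of events are those of the event table, whose positions fall inside the annotated gene in GRCh38 for 99.9% of events and in GRCh37 for 10.9%. The sequences were read from GRCh37 after the exon had been found there by its length and neighbouring introns. For exons that are coding in every annotated transcript, 20 bases of the intron before and 8 of the intron after are in lower case and the exon is in capitals.
BECN1: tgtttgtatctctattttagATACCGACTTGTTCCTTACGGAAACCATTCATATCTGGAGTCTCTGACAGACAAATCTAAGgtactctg
ZNF207: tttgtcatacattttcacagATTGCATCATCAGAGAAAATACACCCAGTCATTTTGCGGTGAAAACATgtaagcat
GOPC: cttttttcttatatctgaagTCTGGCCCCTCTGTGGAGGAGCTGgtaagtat
For the others, the last 25 bases of the intron before are in lower case and the first 3 bases of the exon in capitals.
MICAL1: ttagagctgttaggacttattgcagGAA
TBC1D7: aacaattgttttcttcttcctctagATA
PAPOLA: ataaagcttttttttttaaaaacagGAT
OBFC2A: actgaagtcctctatttatccacagTCT
PTPRS: cacctgtgtctgctttcgggaacagCAA
In GRCh37 the exons lie at chr17:40965966-40966026 (BECN1, minus strand), chr17:30688487-30688534 (ZNF207, plus strand), chr6:117898611-117898634 (GOPC, minus strand), chr6:109768884-109768925 (MICAL1, minus strand), chr6:13325326-13325406 (TBC1D7, minus strand), chr14:97026986-97027048 (PAPOLA, plus strand), chr2:192547218-192547321 (OBFC2A, plus strand) and chr19:5218798-5218809 (PTPRS, minus strand). In the 20 bases before the terminal AG, pyrimidines made up 85.0% in TBC1D7 and 80.0% in BECN1 but 50.0% in MICAL1 and 60% in PAPOLA. Of all tested exons 6798 were found in GRCh37, and over those with a sequence the median was 75%. Over the skipped exons with a sequence it was also 75%.

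BECN1 encodes Beclin 1, a core subunit of the lipid kinase complex that starts autophagosomes. Its 61-nt exon (chr17:42813948-42814008 in the event table) had a PSI of 76.1% to 92.7% in siNT, with a median of 82.2%. In siRBM39 it had 11.4% to 26.2%, with a median of 18.1%. The difference was −64.4 points (limma adjusted p = 4.71e-19), −63.9 with siRBM39-06 and −64.9 with siRBM39-08, on 70 to 143 reads a library. The exon is no multiple of 3. A further 143-nt exon of BECN1, downstream, fell from 71.1–85.0% to 16.6–33.3% PSI, and 2 exons upstream changed by −13.1 and −8.62 points. BECN1 mRNA fell by 0.28 on the log2 scale.

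MICAL1, a monooxygenase that oxidises and takes apart actin filaments, carried the most events of any gene, 8, with 5 exons skipped and 3 introns retained more. Its 42-nt exon (chr6:109447681-109447722) went from 91.1–98.5% PSI in siNT (median 93.9%) to 31.6–62.1% in siRBM39 (median 40.2%). A 191-nt exon upstream of it changed by −53.4 points and the 84-nt exon that follows it by −53.1 points. The 240-nt intron between the 42-nt and the 84-nt exon went from 11.1–20.5% to 31.5–41.5% PSI, and the 127-nt intron that follows the 84-nt exon from 1.75–9.75% to 13.1–24.3%. Both exons and both introns lie next to each other, so that a single stretch held exons that were skipped more and introns that were retained more. Neighbouring events share reads and are not separate evidence. MICAL1 mRNA fell by 0.95 on the log2 scale, to 0.519-fold, in counts that may hold reads of ZBTB24, which overlaps it on the same strand.

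**Figure D4:**
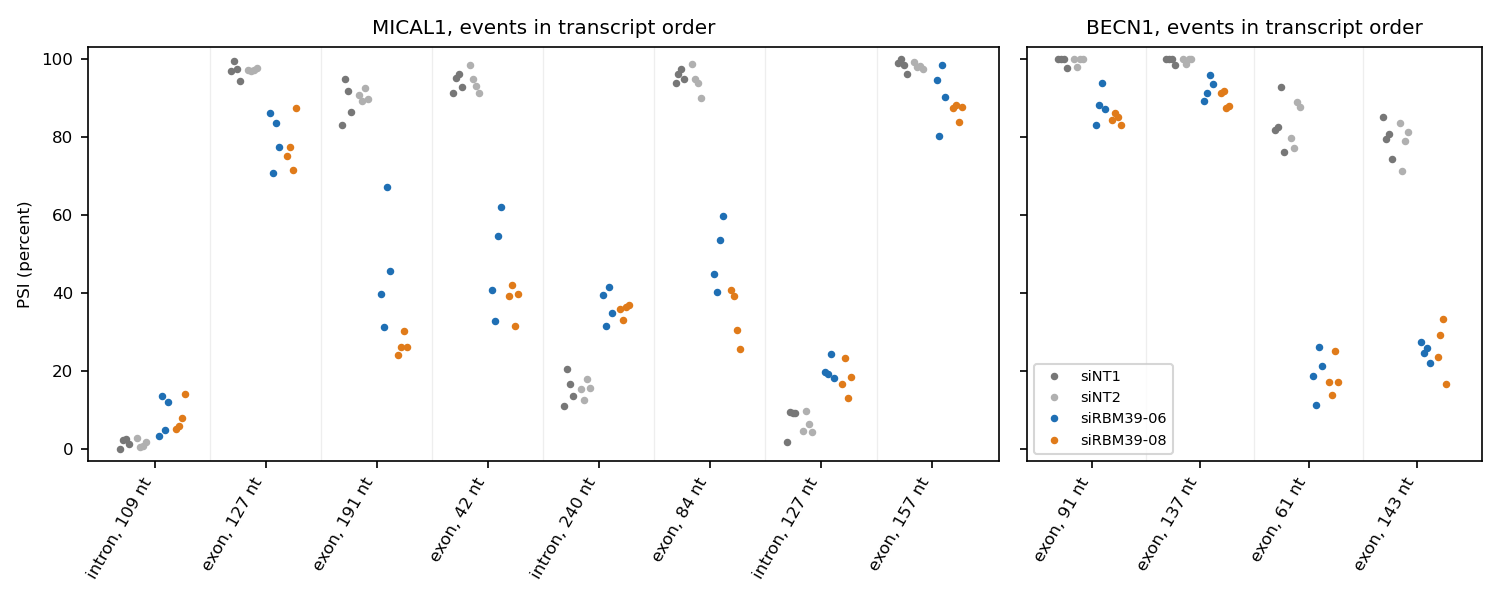
PSI in percent of each library for the 8 MICAL1 events and the 4 BECN1 events called by both siRNAs, in the order in which they lie in the transcript, with colours by siRNA as in the legend. The 42-nt, 84-nt and 191-nt exons of MICAL1 and the 61-nt and 143-nt exons of BECN1 drop by over 50 points, and the MICAL1 introns rise.

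ZNF207, also known as BuGZ, binds the spindle and the kinetochore protein BUB3. Its 48-nt exon (chr17:32361468-32361515) went from 62.5–79.7% PSI in siNT (median 74.9%) to 16.2–31.3% in siRBM39 (median 20.4%). TBC1D7, the third subunit of the TSC complex that restrains mTORC1, had an 81-nt exon (chr6:13325094-13325174) that went from 74.1–87.0% (median 80.9%) to 28.8–45.2% (median 32.1%). In both exons every knockdown library lay below every control. PAPOLA, the canonical poly(A) polymerase, had a 63-nt exon (chr14:96560649-96560711) that went from 58.2–84.8% (median 73.4%) to 7.32–37.8% (median 27.3%). The lowest value belonged to siRBM39-08 replicate 3. PAPOLA mRNA fell by 0.91 on the log2 scale, with 3 events called in the gene. OBFC2A, now NABP1, encodes a single-strand DNA binding protein, and its 104-nt exon (chr2:191682492-191682595) went from 46.5–64.9% (median 53.5%) to 5.59–12.5% (median 9.78%), again without overlap.

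A pair of microexons went the other way and were the largest inclusions. GOPC, a Golgi PDZ protein that sorts CFTR to the lysosome, had a 24-nt exon (chr6:117577448-117577471) with a PSI of 1.32% to 13.4% in siNT, with a median of 7.50%, and of 43.6% to 87.2% in siRBM39, with a median of 67.7%. PTPRS, a receptor tyrosine phosphatase, had a 12-nt exon (chr19:5218787-5218798) with a PSI of 34.6% to 70.5% in siNT (median 56.8%) and of 92.4% to 100% in siRBM39 (median 100%), on as few as 9 reads. Short exons were common among inclusions: 11 of the 46 were of at most 27 nt (23.9%), against 6 of the 369 skipped exons (1.63%) and 1.29% of all tested exons. Median length was 65.5 nt among the included, 102 nt among the skipped and 105 nt over all. A length that is a multiple of 3 was found in 58.7%, 50.9% and 42.3%. The skipped exons lay between shorter introns (medians of 1089 and 1191 nt upstream and downstream) than all tested exons (1736 and 1747 nt), and their median GC content was 50.0% against 49.3%. Their median PSI in siNT was 93.8% against 99.5%. These shares describe the exons, and the tested set itself leans to exons with variable PSI.

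**Figure D5:**
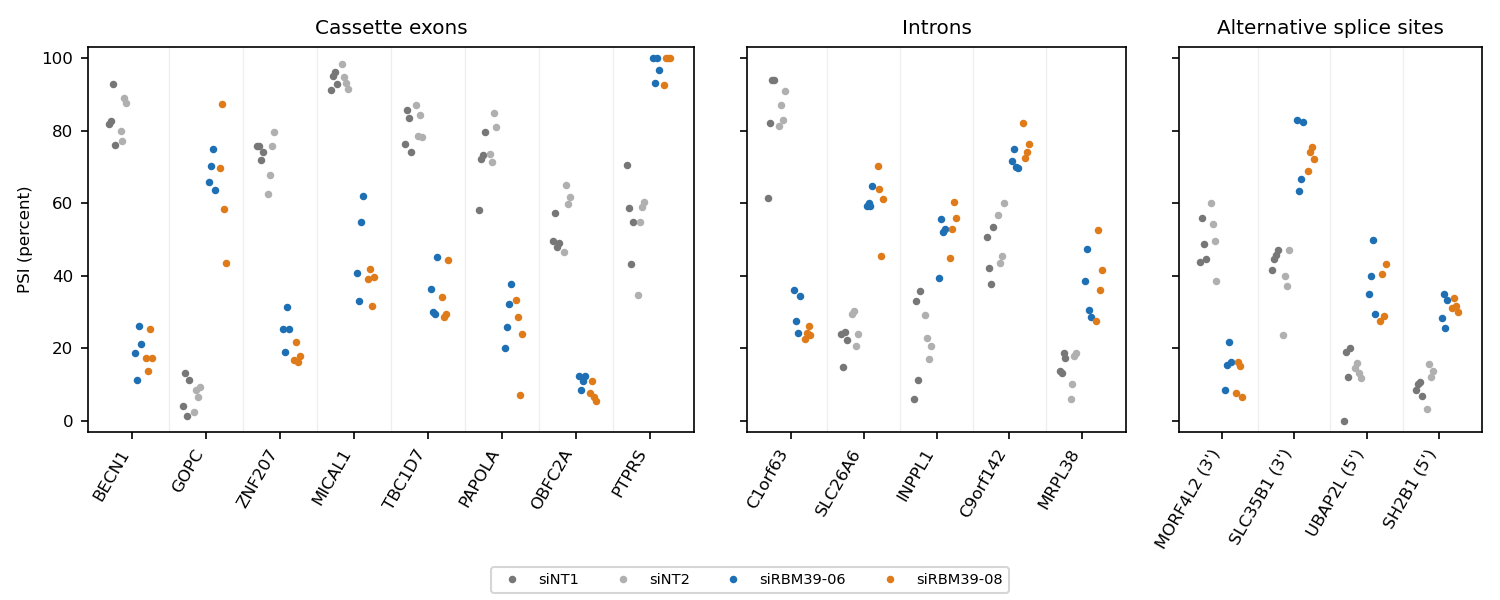
PSI in percent of each of the 16 libraries for the 8 exons, 5 introns and 4 alternative splice sites that changed most with both siRNAs, with siNT in grey, siRBM39-06 in blue and siRBM39-08 in orange. BECN1, ZNF207, MICAL1, TBC1D7, PAPOLA and OBFC2A drop, GOPC and PTPRS rise, and among the introns C1orf63 alone drops.

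The intron that changed most was retained less. C1orf63, now RSRP1, encodes a protein rich in arginine and serine, and its 1516-nt intron (chr1:25243634-25245149) went from 61.4–94.0% PSI in siNT (median 85.1%) to 22.7–36.2% in siRBM39 (median 25.3%). The lowest control, siNT1 replicate 1, still lay above all 8 knockdown libraries. Its mRNA rose by 0.98 on the log2 scale. The ends of the introns named next, with the last 25 intron bases in lower case and the first 3 exon bases in capitals, are as follows.
C1orf63: ttacactttttcttaacctgtctagCTG
SLC26A6: ctgactgcccctggccgccccacagGTG
INPPL1: gctgcccactgacccctgcccacagATG
C9orf142: cgtgacaagcccctgtgctctctagAAA
MRPL38: gacagcttccttctcaccctgccagGCT
In GRCh37 these introns lie at chr1:25570125-25571640 (C1orf63, minus strand), chr3:48669478-48669677 (SLC26A6, minus strand), chr11:71939543-71939770 (INPPL1, plus strand), chr9:139887153-139887376 (C9orf142, plus strand) and chr17:73897355-73897792 (MRPL38, minus strand). SLC26A6, an anion exchanger, had a 200-nt intron that went from 14.9–30.4% PSI in siNT to 45.5–70.4% in siRBM39, while its mRNA rose by 0.64. INPPL1, the lipid phosphatase SHIP2, had a 228-nt intron that went from 5.97–35.7% to 39.5–60.3%. The 224-nt intron of C9orf142, now PAXX, a factor of end joining, went from 37.7–60% to 69.8–82.1%, and the 438-nt intron of MRPL38 from 6.02–18.8% to 27.6–52.7%. The groups did not overlap in any of these 4 introns. The 45 introns retained more were short, with a median of 293 nt against 801 nt over all, and their median GC content was 53.9% against 50.4%. TIA1 and DUS1L carried the other two introns that were retained less.

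At alternative 3′ splice sites, a 78-nt extension in MORF4L2, a chromatin protein of the MRG family, went from 38.5–60% PSI to 6.59–21.9%. A 25-nt extension in SLC35B1, a nucleotide transporter of the endoplasmic reticulum, went from 23.7–47.2% to 63.3–83.0%, and SLC35B1 mRNA rose by 0.75 on the log2 scale. At alternative 5′ splice sites, a 78-nt extension in UBAP2L, a stress granule protein, rose from 0–20% PSI to 27.5–50.0%, and a 53-nt extension in the adaptor SH2B1 from 3.22–15.7% to 25.8–35%. Few 5′ sites were called, and their count depended on the controls: with siRBM39-06 set against siNT1 and siRBM39-08 against siNT2, so that no control was shared, 0 were called, at limma adjusted p under 0.05 and 5 points.

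Splicing factors were themselves among the genes with changed splicing. Of the genes of each list with a tested event, 5 of 19 hnRNP and PTB genes, 3 of 10 SR genes and 2 of 11 U1 genes carried one called by both siRNAs, against 403 of 4285 over all genes tested for mRNA. The number was 1 of 17 in the SF3 and U2 list, 1 of 16 in the tri-snRNP list, 1 of 17 in the Prp19 list, 0 of 5 among splicing kinases and 0 of 2 in the Sm core. In the spliceosome lists, the events called by both siRNAs fell in RBM23, PUF60, SNRPB2, SRSF5, SRRM2, SFRS11 (now SRSF11), LUC7L, TIA1, PRPF8, DHX38 and 5 hnRNP or PTB genes (HNRNPA2B1, HNRNPH1, HNRNPR, HNRNPUL1 and PTBP1). A 51-nt exon of PUF60 went from 36.4–49.5% PSI to 9.16–22.2%. A 54-nt exon of RBM23 went from 82.7–94.7% to 67.9–78.0%. A 36-nt exon of HNRNPA2B1 was included more, from 22.5–30.2% to 40.7–51.9%. A 64-nt exon of LUC7L, in no annotated coding sequence, went from 9.80–24.2% to 0–4.44%, while LUC7L mRNA rose by 0.84. A 262-nt exon of SRRM2 fell from 10.2–18.5% to 0–2.63%. A 285-nt intron of SRSF5 was retained more (11.3% to 21.1% against 26.3% to 46.4%), and a 3105-nt intron of TIA1 less (15.4% to 33.9% against 4.76% to 9.40%).

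In all, 410 genes carried an event called by both siRNAs, of 4391 with a tested event, and 56 carried more than 1. After MICAL1 with 8 came ALG8, a glucosyltransferase of N-glycan assembly, and BECN1 with 4 each, and 10 genes with 3 (ASPH, GPR108, INPPL1, MAP4K4, MORF4L2, PAPOLA, RPAIN, SFRS11, SP100 and TPM1). The 4 ALG8 exons each fell from a median of 100% in siNT to between 79.9% and 89.0% in siRBM39. All 4 overlapped between the groups. Of the 314 genes with a skipped exon whose mRNA was tested, 47 (15%) were higher and 68 (21.7%) lower with both siRNAs. Of all 3272 genes with a tested exon, 15.1% were higher and 14% lower. The median level in siNT was 100 CPM in the 314 genes and 71.6 CPM in the 3272, and its part in these shares was not tested. The share of lower genes was 24.1% for exons whose length is no multiple of 3 and 20.5% for exons whose length is, and the median log2 changes were −0.05 and −0.04. Of the 41 genes with an intron retained more, 7 were higher and 11 lower.

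Libraries with RAS activated by 4OHT, which entered no contrast used for the calls but shared the filters and the estimate of the spread, gave the changes a separate reading. The titles of 4 of its 8 control libraries say siNT2 while their treatment label says siNT1, and either is a non-targeting siRNA. Of the 1409 genes higher with both siRNAs in DMSO, 1116 (79.2%) were also higher after siRBM39 in 4OHT (8 against 8 libraries, edgeR adjusted p under 0.05) and 34 were lower. In 4OHT, 32.2% of all genes were higher. Of the 1504 lower genes, 1215 (80.8%) were lower and 44 higher, where 24.3% of all genes were lower. Of the 369 skipped exons, 338 (91.6%) were also skipped more in 4OHT and 0 were included more, with 8.21% of all exons skipped more. The exons of GOPC and PTPRS were 17.7 and 20.8 points above siNT in 4OHT and 59.6 and 43.3 points in DMSO, and the difference between the treatments was not tested.

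Knockdown of SF3B1, the U2 snRNP protein that RBM39 contacts, was the nearest other condition without RAS, and its 8 libraries were set directly against the 8 siRBM39 libraries. The siRBM39 libraries chose the exons counted here, so the counts are a description. Over all exons, 20.4% had a higher PSI after siRBM39 than after siSF3B1 by the same limits and 2.96% a lower one. Of the 46 exons included more after siRBM39, 42 were higher and 1 was lower. GOPC had a mean PSI of 0% and PTPRS of 5.11% after siSF3B1. Of the 369 skipped exons, 102 were lower and 74 higher. ZNF207, TBC1D7 and the MORF4L2 site were lower after siRBM39, at siSF3B1 means of 40.1%, 56.8% and 75.9%. The 61-nt exon of BECN1 (23.2% after siSF3B1) and the 104-nt exon of OBFC2A (4.79%) did not pass the test of the difference.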

How the data were processed

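RNA of the 48 libraries was sequenced, and the authors made the deposited files with vast-tools and its VAST-DB annotation. The deposited read counts per gene are raw, and the deposited cRPKM values are RPKM corrected for the mappable length of each gene. The authors also deposited percent spliced in for each event, with the reads behind it, as a percentage from vast-tools. Per the labels, the submitters' processing notes name hg19, edgeR and limma. The table of normalised expression was not used, since the counts it was made from were. The members and the gene lists were chosen with earlier results of these data known. Libraries were grouped by title, also where the treatment label of the 4OHT siNT2 libraries reads siNT1, with 4 for each siRNA and treatment.

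Genes with at least 10000 counts summed over the 48 libraries (9991 of 19509 with counts) were tested with edgeR 4.0.16 (TMM, quasi-likelihood) in R 4.3.3, in 1 fit of 6 groups for siRBM39 against siNT and 1 fit of 12 groups for each siRNA. Events with PSI and a coverage score of VLOW or better in all 48 libraries, a PSI that varied and, for introns, balanced junction reads (p at least 0.05) were tested with limma 3.58.1 on the logit of 0.01 + 0.98 × PSI/100. P-values were adjusted by Benjamini-Hochberg over all features of a kind. Mean PSI was compared with a two-sided exact permutation test. Both fits were checked on simulated data. The gene test recovered nearly all changes of 1.5-fold to 4-fold, which were set alike for both siRNAs. Many called genes changed by less than 1.5-fold, and such changes were not simulated. At middling PSI the event test recovered most of the larger shifts and few or none of the smaller, so that the event counts leave out many smaller shifts.

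Named genes were RBM39 and its family, the 10 that rose and 10 that fell most among genes called by both siRNAs without overlap, and, of each list, all genes counted in a direction where 5 or fewer were, otherwise 3. Named events were the 8 exons, 5 introns, 2 sites of each kind and 2 inclusions with the largest change, and the genes with the most events. Events of splicing factors, DUS1L and APEH, and gene levels given beside an event, were chosen after their values were seen. Factors of nonsense-mediated decay are not named, and a few genes that the rule takes are not reported here. Sequences were read from GRCh37 with the GENCODE annotation, where 6798 of 7673 exons (88.6%) and 5151 of 5248 introns (98.2%) were found. No sequence on chromosome 8 was read.

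Alternatives were DESeq2 1.42.0, limma-voom, DESeq2 size factors, other count filters, each control alone, unshared controls, a replicate block, a minimum fold or shift, other event filters and leaving out each library. Depth was 36207502 to 48566557 counts per library. Precision is set by the 4 libraries of each siRNA and by a spread estimated over all 48 libraries.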

Additional observations from a re-analysis of the deposited data

Results flagged for a closer look

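Of 88 groups of 8 libraries (RBM39, its family, the genes and events that changed most and the mean PSI of exons and introns, each in siNT and in siRBM39), 7 held a library far from the other 7. Chance alone flags about 1 group in 20. OVGP1 was at 5.58 CPM in siRBM39-06 replicate 3, where the others had 4.06 to 4.52 CPM. LAT was at 3.27 CPM in siNT1 replicate 1, against 5.54 to 6.65 CPM. PUF60 was at 86.4 CPM in siNT1 replicate 1, against 92.3 to 97.3 CPM. The C1orf63 intron had a PSI of 61.4% in siNT1 replicate 1, against 81.3% to 94.0%. The SLC26A6 intron had 45.5% in siRBM39-08 replicate 3, against 59.2% to 70.4%. The SLC35B1 3′ site had 23.7% in siNT2 replicate 1, against 37.1% to 47.2%. The UBAP2L 5′ site had 0% in siNT1 replicate 1, against 11.8% to 20%. siNT1 replicate 1 thus gave 4 of the 7, and none came from siRBM39-06 replicate 1.

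Among RBM39 and the genes that changed most, 20 in all, 6 differed between the siRNAs in an edgeR test of the difference itself, where 47.6% of all genes did. The log2 change of siRBM39-08 minus that of siRBM39-06 was 0.18 for RBM39, −0.74 for LAT, 0.34 for DHFRL1, 0.42 for ZDHHC2, 0.32 for RNFT1 and 0.95 for SCN9A. In LAT the rise, and in the other 5 the fall, was larger with siRBM39-06.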

How the results depend on the processing

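Of the counts of genes called by both siRNAs (1409 higher and 1504 lower), a minimum of 2-fold left 16 and 73, and of the 8 against 8 counts 28 and 101. The same minimum left 0 genes between siNT1 and siNT2 and 116 between siRBM39-08 and siRBM39-06. Limma-voom (1400 and 1543), DESeq2 (1457 and 1543) and unshared controls (1114 and 1290, or 1195 and 1383) kept the counts within 1.5 times. Leaving out each library gave 1273 to 1404 higher and 1381 to 1519 lower genes, 336 to 358 skipped exons and 32 to 49 introns. The skipped exons (369) numbered 214 at a minimum of 10 points and 174 with PSI kept within 1 to 99, where fewer exons were tested. Introns retained more (45) numbered 16 at 10 points, 27 with unshared controls, 24 with PSI within 1 to 99, 315 without the balance filter and 117 with the 16 libraries alone, and those retained less (3) numbered 18 and 6 in the last 2 settings. Why the intron count rose that far was not tested. Alternative 3′ sites (18) numbered 30 by reads drawn from beta distributions and 9 with unshared controls. Alternative 5′ sites (5) numbered 2 at 10 points, 11 by beta distributions, 0 with unshared controls, 3 with PSI within 1 to 99, 3 at coverage of LOW or better, 1 with no minimum range, 2 with the 16 libraries alone and 2 to 7 leaving out each library, the 2 without siRBM39-06 replicate 1, siRBM39-08 replicate 2 or siRBM39-08 replicate 4 and the 7 without siNT1 replicate 3. It was 3 without siNT1 replicate 2, siNT2 replicate 2, siRBM39-06 replicate 4 or siRBM39-08 replicate 3. The difference in mean exon PSI was 0 with medians in place of means, because the median exon had a PSI of 100% in each library. Of 195 named genes beside RBM39, 17 lost their 8 against 8 call at an adjusted p under 0.05 under some setting. These losses came mostly with siNT1 alone (12) or siNT2 alone (10), and no gene changed direction in that fit. The minimum of 2-fold and the call by both siRNAs were not applied in this count of 17, so it does not cover them.

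Same-numbered libraries did not deviate together throughout, with correlations from −0.31 to 0.62, and differently numbered ones had correlations from −0.71 to 0.72. With 4 libraries a group, these values cannot decide whether the numbers pair the samples. With the replicate block, 1403 genes were higher and 1495 lower with both siRNAs, 368 exons were skipped more and 46 introns retained more.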

Other observations

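Several gene lists had medians of opposite sign with the 2 siRNAs, and are given as values. The median log2 change of interferon-stimulated genes was −0.35 with siRBM39-06 and 0.12 with siRBM39-08, and 12 of its 19 genes had opposite signs. ATF4 response genes had medians of −0.37 and 0.13, recombination genes −0.26 and 0.05, NRF2 targets −0.15 and 0.13, genes of the unfolded protein response 0.33 and −0.04 and collagens 0.13 and −0.14. Aminoacyl-tRNA synthetases had medians of −0.27 and 0.01. Over all 9991 genes, 3343 had opposite signs.

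Splicing events called by both siRNAs fell unevenly over the other gene lists, described here by counts alone. Of the list genes with a tested event, 6 of 25 lysosome genes, 4 of 17 collagens, 4 of 18 contractile genes, 3 of 20 aminoacyl-tRNA synthetases, 3 of 15 glycolysis genes and 2 of 15 cholesterol genes carried one, against 403 of 4285 over all genes. None of 28 ribosome biogenesis genes, 16 elongation genes, 15 genes of the unfolded protein response, 10 NuRD genes, 10 genes of the anaphase-promoting complex and 10 cytosolic ribosomal protein genes did.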
